A study of Mus musculus with 12 samples.

Results

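The genes described here mark pericytes or belong to the platelet-derived growth factor (PDGF) receptor system that pericytes depend on. They were chosen by name, 10 of the 55414 genes in the table, with the difference between the genotypes already known, including that some markers were much lower and others were not. Their differences between the genotypes are therefore given as a description, without a test. The data are 12 lung samples of C57BL/6J mice, all instilled with 50 µg of LPS, an endotoxin of Gram-negative bacteria that causes acute lung injury, and all taken on day 4. In 6 samples named IL-10 B-KO, called knockout here, a floxed Il10 gene was deleted in B cells by Mb1-Cre, which is active from early B cell stages. The other 6, named IL-10 B-WT, are called control. The methods do not say whether the controls carried the floxed allele or the Cre, and give no ages. No lung without LPS is part of the table, so that the levels are those of injured lungs.

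Pericytes are the contractile cells that sit on capillaries inside the basement membrane. Endothelial cells release the ligand PDGF-B, which is held close to the vessel and acts on PDGF receptor beta of the pericytes, and without this signal pericytes fail to populate capillaries. Most genes used to recognize pericytes are shared with smooth muscle cells, and no single gene is exclusive to them.

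Whole-lung RNA was sequenced and the values are TPM, a measure of transcript abundance corrected for gene length and brought to the same sum in all libraries, so that levels of different genes can be set side by side and the number of reads behind a value is unknown. Log2 fold changes are knockout minus control on log2(TPM + 1), given with their standard error (SE) from limma, and understate differences of genes with low TPM. All 10 genes passed the filter of at least 1 TPM in at least 6 lungs, as did 15148 genes in all. Differentially expressed genes (DEGs) were those at or below 0.05 in limma after Benjamini-Hochberg adjustment, with a minimum log2 fold change of 1 in size. Of the 15148 genes 75 did (0.495%), with 0.469% lower and 0.0264% higher in knockout lungs.

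Some lungs stood apart. Control replicate 5 had 30.5% of its TPM on mitochondrially encoded genes, against 4.63% to 15.8% in the other 11 lungs. Control replicate 1 had the lowest similarity to its own group (median Spearman's rho 0.876 across tested genes). The sum of its 12 leukocyte markers (3132.1 TPM) was the largest of the control lungs, against 311.3 to 1334.2 TPM in the others. It lay within the range of the knockout lungs, as did that of control replicate 3 (1334.2 TPM). Il10, the targeted gene, was at 0 to 0.88 TPM in control lungs (0.355 ± 0.348, SD, n = 6) and at 0 to 0.58 TPM in knockout lungs (0.282 ± 0.220). These ranges overlapped and the gene did not pass the filter, so that its level in whole lung does not separate the genotypes and the group names rest on the labels. Cd79a, the B cell gene that drives Mb1-Cre, was between 15.3 and 258.6 TPM in control lungs and between 0 and 5.73 TPM in knockout lungs. Its level therefore separates the labeled groups, as did 0.924% of all genes tested with knockout lungs lower. It does not show whether Il10 was deleted.

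The 10 genes ranged from clearly lower means in knockout lungs to means close to the control mean. The receptor Pdgfrb and 3 genes of mitochondrial proteins, Cox4i2, Ndufa4l2 and Higd1b, had means of 30.0% to 44.6% of the control mean. Cspg4 and Abcc9 lay in between, at 55.8% and 60.5%. The ligand Pdgfb, Rgs5, Kcnj8 and Mcam were at 87.2% to 98.1%, which is less than the spread between lungs of a genotype. The median log2 fold change was -0.64 over the 10 genes, and 0.10 over all genes tested. Log2 fold changes of -1 or lower were found for 4 of the 10, and for 2.09% of all genes tested. All 10 were lower, as were 36.8% of all genes tested, but for Rgs5, Mcam and Kcnj8 this direction turned when single lungs were left out. RNA of whole lung cannot tell fewer pericytes from less of a transcript per pericyte.

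**Figure D1:**
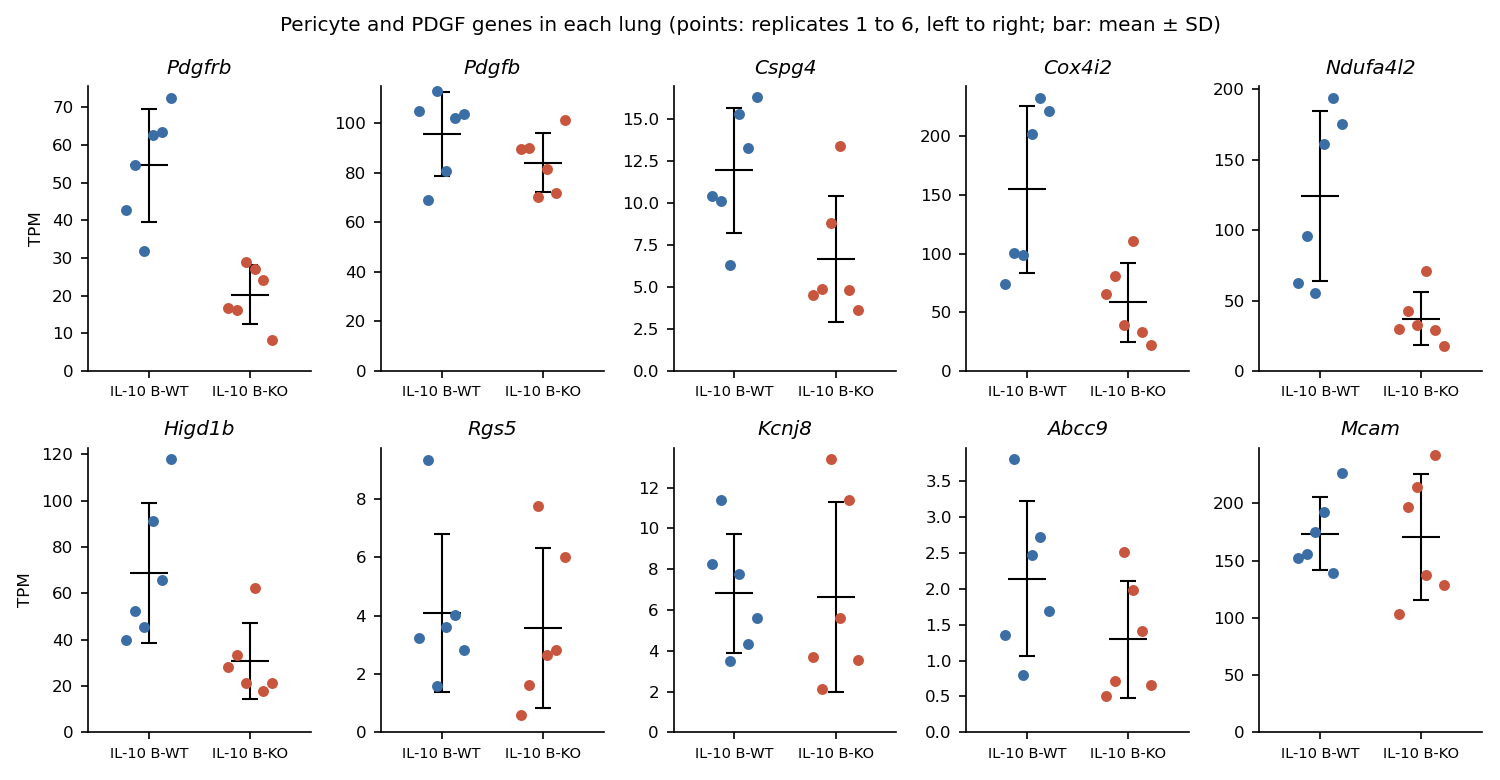
TPM of each of the 10 genes (vertical axis, linear, from 0) in the 6 control (blue) and 6 knockout lungs (red), with 1 point per lung and the mean ± SD in black. For Pdgfrb the knockout lungs (8.32 to 28.9 TPM) lie below every control lung (31.8 to 72.5 TPM), while for Mcam, Kcnj8 and Rgs5 the groups cover one another.

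Pdgfrb (ENSMUSG00000024620, GRCm38 chromosome 18, 61045150 to 61085061, plus strand) encodes the receptor that PDGF-B binds. It was at 42.7, 54.6, 31.8, 62.8, 63.5 and 72.5 TPM in control replicates 1 to 6 and at 16.7, 16.3, 28.9, 27.2, 24.2 and 8.32 TPM in knockout replicates 1 to 6. Every knockout lung was below every control lung, with control replicate 3 and knockout replicate 3 lying closest to each other. Groups that did not overlap, with the knockout lungs lower, were seen in 0.924% of all genes tested, and with them higher in 0.0924%. The means were 54.6 ± 15.0 and 20.3 ± 7.88 TPM (SD, n = 6 each), with a log2 fold change of -1.44 (SE 0.29). Omitting any single lung gave log2 fold changes between -1.58 and -1.22.

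Pdgfb (ENSMUSG00000000489, chromosome 15, 79995874 to 80014977, minus strand) encodes the chain that forms the ligand PDGF-BB, made in lung largely by endothelial cells. It was at 105.0, 69.1, 112.7, 80.8, 101.9 and 103.6 TPM in control lungs and at 89.3, 90.0, 70.0, 81.5, 71.8 and 101.2 TPM in knockout lungs. The groups overlapped throughout, and no knockout lung was below the lowest control lung. Its log2 fold change was -0.18 (SE 0.16). In each lung Pdgfrb was less abundant than its ligand. Receptor transcript amounted to 28.2% to 79.0% of ligand transcript in control lungs (median 66.1%) and 8.22% to 41.3% in knockout lungs (median 26.0%), and these ranges overlapped.

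The other ligands and receptors of the family were not members and were tested. Of 5 genes, 4 passed the filter and 0 were DEGs, with a median log2 fold change of -0.36. Pdgfa, the chain that acts mainly on PDGF receptor alpha, had means of 48.7 ± 11.3 and 34.1 ± 7.96 TPM (SD, n = 6, limma adjusted p = 0.357), and it was the 1 gene of the 4 that was lower at an unadjusted p of at most 0.05, as were 5.71% of all genes tested. Pdgfra, the receptor found mainly on fibroblasts, had a mean in knockout lungs (17.3 ± 12.8 TPM, SD, n = 6) of 86.5% of the control mean, with 2 knockout lungs above every control lung (log2 fold change -0.35, limma adjusted p = 0.761). Pdgfd, another ligand of PDGF receptor beta, was at 11.7 ± 2.19 and 9.13 ± 3.21 TPM, and the receptor-like gene Pdgfrl was at 4.33 ± 2.88 and 6.63 ± 2.96 TPM (SD, n = 6, limma adjusted p-values 0.497 and 0.494). Pdgfc stayed below the filter. A list of 22 genes for the retention, processing and signal relay of PDGF, among them adapters such as Grb2 and Shc1, held 0 DEGs, with 12 lower, 10 higher and a median of -0.08. Of these, 2 genes were lower at an unadjusted p of at most 0.05 in limma. These were Nrp1, a co-receptor (81.0 ± 26.4 and 49.6 ± 15.2 TPM, SD, n = 6, limma adjusted p = 0.304), and Gab1, a docking protein (15.0 ± 1.57 and 10.5 ± 0.894 TPM, SD, n = 6, limma adjusted p = 0.150). Gab1 was the 1 gene of the list whose groups did not overlap, with knockout lungs lower (0.924% of all genes tested). It was singled out after its values were seen. The largest log2 fold changes of the list were higher in knockout lungs without passing, namely 0.90 for Plat, the protease tPA that activates PDGF-C (32.0 ± 13.0 and 72.1 ± 54.0 TPM, SD, n = 6, limma adjusted p = 0.427), and 0.80 for Furin, which cleaves PDGF precursors (51.5 ± 39.6 and 85.3 ± 43.4 TPM, SD, n = 6, limma adjusted p = 0.441).

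Cspg4 (ENSMUSG00000032911, chromosome 9, 56865033 to 56899870, plus strand) encodes NG2, a membrane proteoglycan of mural cells that binds PDGF. It was at 10.4, 10.1, 6.29, 15.3, 13.3 and 16.3 TPM in control lungs and at 4.51, 4.90, 8.82, 13.4, 4.79 and 3.61 TPM in knockout lungs. In knockout lungs, 4 of 6 were below every control lung, and the groups overlapped because of knockout replicates 3 and 4. The log2 fold change was -0.82 (SE 0.30).

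Cox4i2, Ndufa4l2 and Higd1b encode small mitochondrial proteins that mark pericytes in lung and brain. Each has a widely expressed relative, namely Cox4i1, Ndufa4 and Higd1a. Cox4i2 (ENSMUSG00000009876, chromosome 2, 152754173 to 152765037, plus strand), an isoform of cytochrome c oxidase subunit 4 linked to oxygen sensing in lung, was at 73.8, 100.1, 98.7, 201.9, 232.2 and 221.8 TPM in control lungs and at 65.1, 81.1, 39.1, 110.8, 32.8 and 21.8 TPM in knockout lungs. The control lungs fell into 3 near 74 to 100 TPM and 3 above 200 TPM, and 4 of 6 knockout lungs were below all of them. Its log2 fold change was -1.45 (SE 0.41).

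Ndufa4l2 (ENSMUSG00000040280, chromosome 10, 127514967 to 127517154, plus strand), induced by hypoxia in many cells, had the largest difference of the 10 genes. It was at 62.1, 95.6, 55.7, 161.4, 193.6 and 175.6 TPM in control lungs and at 29.7, 42.6, 32.7, 71.3, 29.2 and 17.6 TPM in knockout lungs. Knockout replicate 4 was above 2 control lungs, replicates 1 and 3, and the other 5 knockout lungs were below all control lungs. The log2 fold change was -1.67 (SE 0.37). The gene overlaps Shmt2 on the opposite strand and the strandedness of the counting is not given in the sources used here. Shmt2 was at 26.8 ± 14.3 and 24.8 ± 5.24 TPM (SD, n = 6, limma adjusted p = 0.992).

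Higd1b (ENSMUSG00000020928, chromosome 11, 102835849 to 102838040, plus strand), a member of the hypoxia-inducible domain family, was at 40.1, 52.6, 45.7, 91.4, 65.7 and 117.8 TPM in control lungs. In knockout lungs it was at 28.1, 33.4, 21.3, 62.3, 17.9 and 21.3 TPM. Here too 5 of 6 knockout lungs were below every control lung, and knockout replicate 4 was the exception. The log2 fold change was -1.16 (SE 0.32).

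The widely expressed relatives had means in knockout lungs that were close to or above the control mean. Cox4i1 was at 491.3 ± 107.0 TPM in control and 618.6 ± 86.5 TPM in knockout lungs (SD, n = 6, limma adjusted p = 0.448), Ndufa4 at 238.9 ± 56.1 and 242.5 ± 44.5 TPM (limma adjusted p = 0.945), and Higd1a at 16.7 ± 5.80 and 21.7 ± 5.42 TPM (limma adjusted p = 0.517). Cox4i2 transcript came to a median of 28.3% of Cox4i1 in control lungs (12.3% to 79.0%) and 7.74% in knockout lungs (3.87% to 20.1%). Ndufa4l2 came to a median of 44.5% of Ndufa4 in control lungs (at most 124.2%) and 12.9% in knockout lungs (9.90% to 32.5%). Higd1b exceeded Higd1a in every control lung (224.4% to 1002.3%) and in 4 of 6 knockout lungs (66.5% to 338.3%). The ranges of all 3 ratios overlapped between the genotypes. The highest of each was in control replicate 5, the lung with the largest mitochondrial share. In that lung Cox4i1 (293.8 TPM), Ndufa4 (155.8 TPM) and Higd1a (6.55 TPM) were each the lowest of all lungs. Higd1b (65.7 TPM) was not the highest of the control lungs there. Higd2a, a further relative, was at 156.8 ± 20.4 and 173.3 ± 15.7 TPM (SD, n = 6, limma adjusted p = 0.621).

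Rgs5, Kcnj8 and Abcc9 are markers that define pericytes in brain, and were the least abundant of the 10 genes in these lungs. Rgs5 (ENSMUSG00000026678, chromosome 1, 169655501 to 169695813, plus strand), a regulator of G protein signaling, was at 3.23, 9.33, 1.58, 3.61, 4.01 and 2.82 TPM in control lungs and at 0.590, 1.62, 7.77, 2.64, 2.81 and 6.01 TPM in knockout lungs. The highest knockout lung exceeded 5 of 6 control lungs. Its log2 fold change was -0.25 (SE 0.41), and without knockout replicate 1 it was 0.01.

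Kcnj8 (ENSMUSG00000030247, chromosome 6, 142564837 to 142571614, minus strand) and Abcc9 (ENSMUSG00000030249, chromosome 6, 142587862 to 142702315, minus strand) are neighbors 16248 bases apart and encode the pore Kir6.1 and the regulatory subunit SUR2 of the same ATP-sensitive potassium channel. Kcnj8 was at 8.25, 11.4, 3.52, 7.79, 4.33 and 5.62 TPM in control lungs and at 3.72, 2.14, 13.4, 5.63, 11.4 and 3.54 TPM in knockout lungs. The lowest and the highest lung were both knockout lungs, replicates 2 and 3, and the log2 fold change was -0.17 (SE 0.38), or 0.04 without knockout replicate 2. Abcc9 was at 1.36, 3.80, 0.800, 2.47, 2.72 and 1.69 TPM in control lungs and at 0.500, 0.710, 2.51, 1.98, 1.41 and 0.660 TPM in knockout lungs. Although 3 knockout lungs were below every control lung, the groups overlapped, and the log2 fold change was -0.45 (SE 0.28). Kcnj8 exceeded Abcc9 in every lung. Of the alternative subunits of such channels, Abcc8 did not pass the filter and Kcnj11 was at 1.23 ± 0.608 and 0.895 ± 0.193 TPM (SD, n = 6, limma adjusted p = 0.680).

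Mcam (ENSMUSG00000032135, chromosome 9, 44134469 to 44142727, plus strand) encodes CD146, an adhesion molecule that pericytes share with endothelial and smooth muscle cells. It was at 152.6, 155.6, 174.8, 192.6, 139.4 and 226.3 TPM in control lungs and at 103.6, 197.1, 213.8, 137.1, 241.7 and 128.4 TPM in knockout lungs. The knockout lungs lay on both sides of the control range, 3 below and 1 above it. The log2 fold change was -0.07 (SE 0.22), and was 0.06 without knockout replicate 1 and 0.01 without control replicate 6. An antisense gene, Gm10687, overlaps Mcam and was at 3.69 ± 0.860 and 2.30 ± 0.743 TPM (SD, n = 6, limma adjusted p = 0.298).

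The remaining relatives of the RGS and adhesion genes were also tested. Rgs4 was at 5.45 ± 1.82 and 4.37 ± 1.74 TPM, Rgs2 at 24.5 ± 9.88 and 35.1 ± 9.50 TPM, Rgs3 at 53.6 ± 11.5 and 54.4 ± 5.61 TPM, and Rgs16 at 3.02 ± 4.07 and 4.24 ± 2.85 TPM (SD, n = 6). L1cam and Alcam had log2 fold changes of 0.16 (SE 0.19) and 0.45 (SE 0.29). None of the 11 tested relatives and partners was a DEG, and 0 passed an unadjusted p of at most 0.05 in limma.

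By mean TPM, the order in control lungs was Mcam (173.5), Cox4i2 (154.8), Ndufa4l2 (124.0), Pdgfb (95.5), Higd1b (68.9), Pdgfrb (54.6), Cspg4 (12.0), Kcnj8 (6.82), Rgs5 (4.10) and Abcc9 (2.14). Each neighboring pair overlapped between lungs except Pdgfrb and Cspg4. In knockout lungs the order was the same apart from Pdgfb (84.0), which stood above Cox4i2 (58.5) and Ndufa4l2 (37.2). There, Mcam (170.3) was separated from Pdgfb by its lowest lung, and every pair further down overlapped. Cspg4 (6.67) and Kcnj8 (6.64), which differed in control means, were at nearly the same mean in knockout lungs.

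Differences inside a genotype were not used to choose the genes, and were examined by subtracting the mean of each genotype. Over the 12 lungs, Cox4i2, Ndufa4l2 and Higd1b deviated together, with Pearson's r from 0.84 to 0.91. Knockout replicate 4 was the highest knockout lung for all 3. Cspg4 moved with Ndufa4l2 (r = 0.82) and with Pdgfrb (r = 0.82). Rgs5, Kcnj8 and Abcc9 deviated with each other (r from 0.61 to 0.71), and were all highest in control replicate 2 and knockout replicate 3. Between the trio of mitochondrial genes on the one hand and Rgs5 and Kcnj8 on the other, r lay between -0.40 and -0.01. Abcc9 differed from these in sign, with r of 0.20 to Cox4i2, 0.52 to Ndufa4l2 and 0.19 to Higd1b. Pdgfb was opposite to Kcnj8 (r = -0.80) and Abcc9 (r = -0.82). These values describe 12 lungs that share the scaling to a common total.

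**Figure D2:**
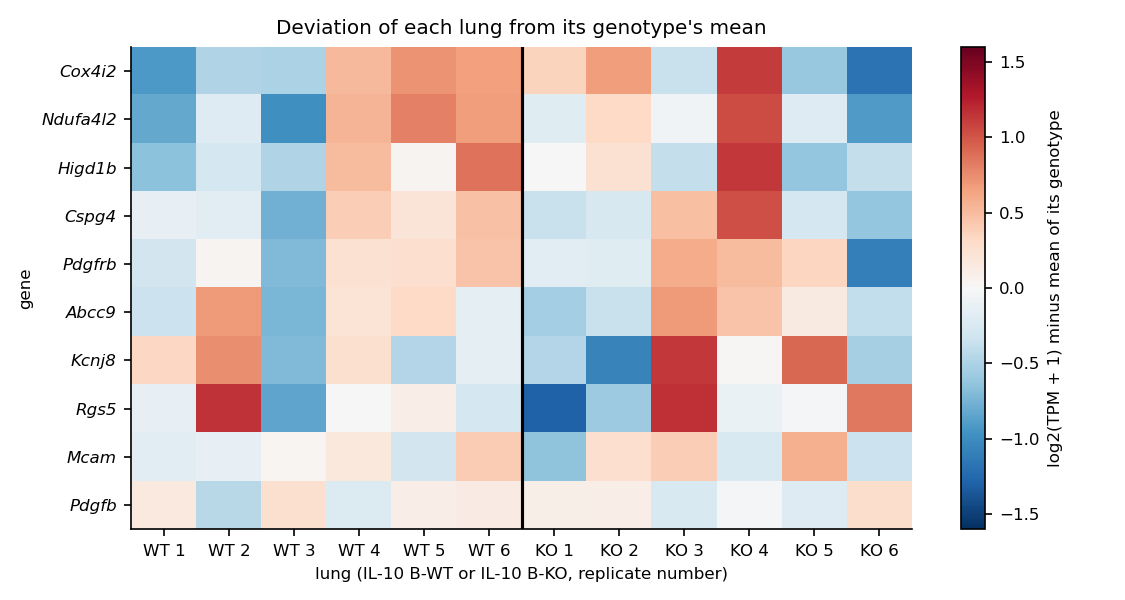
Deviation of each lung from the mean of its genotype on log2(TPM + 1) (color scale, red above and blue below the mean) for the 10 genes (rows) in the 12 lungs (columns, WT for control and KO for knockout). Cox4i2, Ndufa4l2 and Higd1b are highest among knockout lungs in replicate 4, while Rgs5, Kcnj8 and Abcc9 are highest in control replicate 2 and knockout replicate 3.

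Within each genotype, Pdgfrb was related to the other 9 genes over 6 lungs, which gave 18 relations with exact permutation tests (two-sided, 720 pairings). In control lungs Pdgfrb went with Cspg4 (Pearson's r = 0.95, exact permutation p = 0.00556, adjusted p = 0.0417, n = 6; Spearman's rho = 0.89, exact p = 0.0333, adjusted p = 0.10). The same held for Ndufa4l2 (r = 0.93, exact permutation p = 0.00417, adjusted p = 0.0417, n = 6; rho = 0.94, exact p = 0.0167, adjusted p = 0.10). In knockout lungs Pdgfrb was inverse to its ligand Pdgfb (r = -0.90, exact permutation p = 0.00694, adjusted p = 0.0417, n = 6; rho = -0.94, exact p = 0.0167, adjusted p = 0.10). Without the 2 lungs farthest from the Pdgfrb median, r was 0.91, 0.81 and -0.76 for these relations. The other 15 did not pass the adjusted threshold, and by rank 0 of the 18 did. For Pdgfb in control lungs r was -0.37 (exact permutation p = 0.486, adjusted p = 0.63, n = 6; rho = -0.43, exact p = 0.419, adjusted p = 0.629), and it turned to 0.87 without 2 lungs. Whether the genotypes differed in this relation was not tested.

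**Figure D3:**
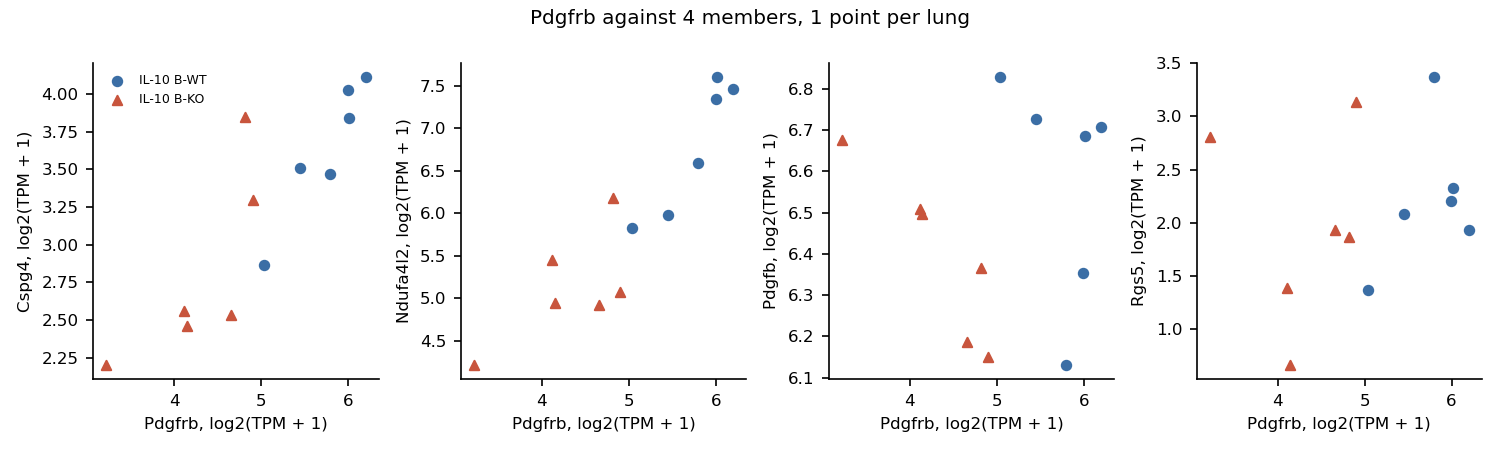
Pdgfrb (horizontal axis) against Cspg4, Ndufa4l2, Pdgfb and Rgs5 (vertical axes), all on log2(TPM + 1), with 1 point per lung (blue circles control, red triangles knockout). Cspg4 and Ndufa4l2 increase with Pdgfrb among control lungs (r = 0.95 and 0.93), Pdgfb decreases with it among knockout lungs (r = -0.90), and Rgs5 shows no such order.

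Among 11167 genes with a mean of at least 5 TPM, those whose deviations were most like Pdgfrb over the 12 lungs were Tbx5 (r = 0.96), Map3k20 (0.93), Des (0.93), Smtn (0.92) and Dmpk (0.91). Tbx5, a transcription factor, was at 15.7 TPM in control and 6.58 TPM in knockout lungs (log2 fold change -1.19, limma adjusted p = 0.0568), while Map3k20 was at 13.5 and 11.1 TPM (limma adjusted p = 0.455). Des and Smtn, which encode desmin and smoothelin of muscle cells, also had lower means in knockout lungs without passing the test (limma adjusted p-values 0.381 and 0.191). Mcam was most like Vopp1 (0.95), Gm25767 (0.92), Lyve1 (0.90), Pttg1ip (0.90) and Fkbp14 (0.90), and Rgs5 most like Tmx4 (0.83), Ubqln2 (0.80), Ube3a (0.78), Emc1 (0.78) and Pag1 (0.76). None of the genes named for Mcam or Rgs5 was a DEG. All these values of r are the highest of 11167 or 11168 over 12 lungs. No chance level was computed for them, so that the named genes are a description only.

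Promoters of 5 of the 10 genes were matched in RefSeq (GRCm38.p6). Those of Rgs5 and Kcnj8 are shown because these genes deviated together between lungs and apart from Cox4i2, and because both annotations place their start at the same base. Each run is the 250 bases before the start, 5′ to 3′ on the strand of the gene, at chr1:169655251-169655500 (plus strand) and chr6:142571615-142571864 (minus strand). Capitals mark a match to any of the motifs searched on both strands.
Rgs5: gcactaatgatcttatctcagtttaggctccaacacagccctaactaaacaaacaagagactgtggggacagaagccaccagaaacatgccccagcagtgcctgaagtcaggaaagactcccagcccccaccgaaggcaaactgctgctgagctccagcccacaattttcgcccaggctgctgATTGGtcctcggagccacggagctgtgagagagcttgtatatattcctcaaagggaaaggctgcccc
Kcnj8: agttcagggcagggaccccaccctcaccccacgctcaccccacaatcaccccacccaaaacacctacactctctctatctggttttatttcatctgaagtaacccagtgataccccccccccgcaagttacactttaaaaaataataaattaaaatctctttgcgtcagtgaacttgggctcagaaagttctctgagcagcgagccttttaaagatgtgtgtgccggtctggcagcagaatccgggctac
The motifs were CCAAT, which 33.8% of 32851 promoter windows of this length hold, TGGGAA, bound by the Notch effector RBPJ (21.6%), ACGTG, the core of the hypoxia response element (16.6%), and the CArG box bound by SRF in muscle genes (1.47%). In Rgs5 a CCAAT box on the opposite strand was the 1 match and in Kcnj8 there were 0. These are letters in a short window, and do not say which factors act there.

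Other genes of pericytes were lower in knockout lungs in large part. Of 22 such genes that were not members, 21 were tested and 7 were DEGs, all of them lower (0.469% of all genes). At an unadjusted p of at most 0.05 in limma, 17 were lower (5.71% of all genes) and 0 higher. The median log2 fold change was -1.26, and 8 of the 21 had groups without overlap (0.924% of all genes). The 7 DEGs were Notch3, Angpt1, Trpc6, Gucy1a1, Gucy1b1, Pde5a and Pdzd2. Notch3, the Notch receptor that mural cells need, was at 26.4 ± 8.35 TPM in control and 7.30 ± 3.55 TPM in knockout lungs (SD, n = 6), a log2 fold change of -1.78 (SE 0.32, limma adjusted p = 0.0236). Pdzd2, a PDZ domain protein, fell from 45.6 ± 15.0 to 11.4 ± 6.16 TPM (SD, n = 6), a log2 fold change of -1.98 (SE 0.35, limma adjusted p = 0.0236). Gucy1a1 and Gucy1b1, the subunits of the nitric oxide receptor guanylate cyclase, fell by 2.07 and 1.65 on the log2 scale (limma adjusted p-values 0.0222 and 0.0378). Pde5a, which breaks down cGMP, and the cation channel gene Trpc6 fell by 1.86 and 1.29 (limma adjusted p-values 0.0201 and 0.0195), and Angpt1, a ligand for the endothelial receptor Tie2, by 1.26 (limma adjusted p = 0.0391). The list was put together with results of these lungs known, so that it is not independent evidence of its direction. Vtn, which encodes vitronectin, had means of 28.2 ± 14.2 and 6.03 ± 3.50 TPM and did not pass (SD, n = 6, limma adjusted p = 0.0796). The 2 genes of the list with higher means, Gja4 (0.55) and Anpep (0.80), were singled out after their values were seen, and neither passed the test (limma adjusted p-values 0.436 and 0.504).

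The number of DEGs in this list depended on single lungs and on the scaling. It was 12 without control replicate 1, 1 without control replicate 4, 5 or 6, 3 without control replicate 2, 2 without knockout replicate 3, 4 without knockout replicate 6, and 0 without knockout replicate 1 or 5. It was also 0 with quantile normalization, with median centring, with no filter and with the replicate number as a block, while the median log2 fold change stayed between -1.46 and -1.03 in all these analyses.

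Lists for the cells around pericytes held 0 DEGs. They are read against the 5.71% of all genes tested that were lower at an unadjusted p of at most 0.05 in limma. Of the 12 smooth muscle genes, 11 were tested, 0 were DEGs and 6 passed at the unadjusted level of 0.05, each of them lower. The median log2 fold change was -0.86. Mylk, myosin light chain kinase, passed an adjusted p of 0.05 but not the minimum fold change (83.2 ± 12.9 and 44.6 ± 10.6 TPM, SD, n = 6, log2 fold change -0.91, limma adjusted p = 0.0438), and was the 1 of the 11 whose groups did not overlap (0.924% of all genes). Cnn1, Myh11 and Synpo2 had log2 fold changes of -1.04, -1.03 and -1.03 without passing (limma adjusted p-values 0.474, 0.357 and 0.298). Of 16 endothelial genes 0 were DEGs, 3 were lower at an unadjusted p of at most 0.05, and the median was -0.36. Of 12 fibroblast genes 0 were DEGs, 3 were lower at an unadjusted p of at most 0.05, and the median was -0.16 with a range from Inmt at -1.78 (limma adjusted p = 0.325) to Col3a1 at 1.01 (limma adjusted p = 0.534). Pulmonary veins of mice carry cardiac muscle, and 10 cardiomyocyte genes had a median of -1.17 with 0 DEGs and 2 lower at an unadjusted p of at most 0.05. Cardiomyocytes also use Abcc9. The sum of the 10 cardiomyocyte genes ranged from 79.6 to 1880.1 TPM in control and from 32.1 to 508.8 TPM in knockout lungs.

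**Figure D4:**
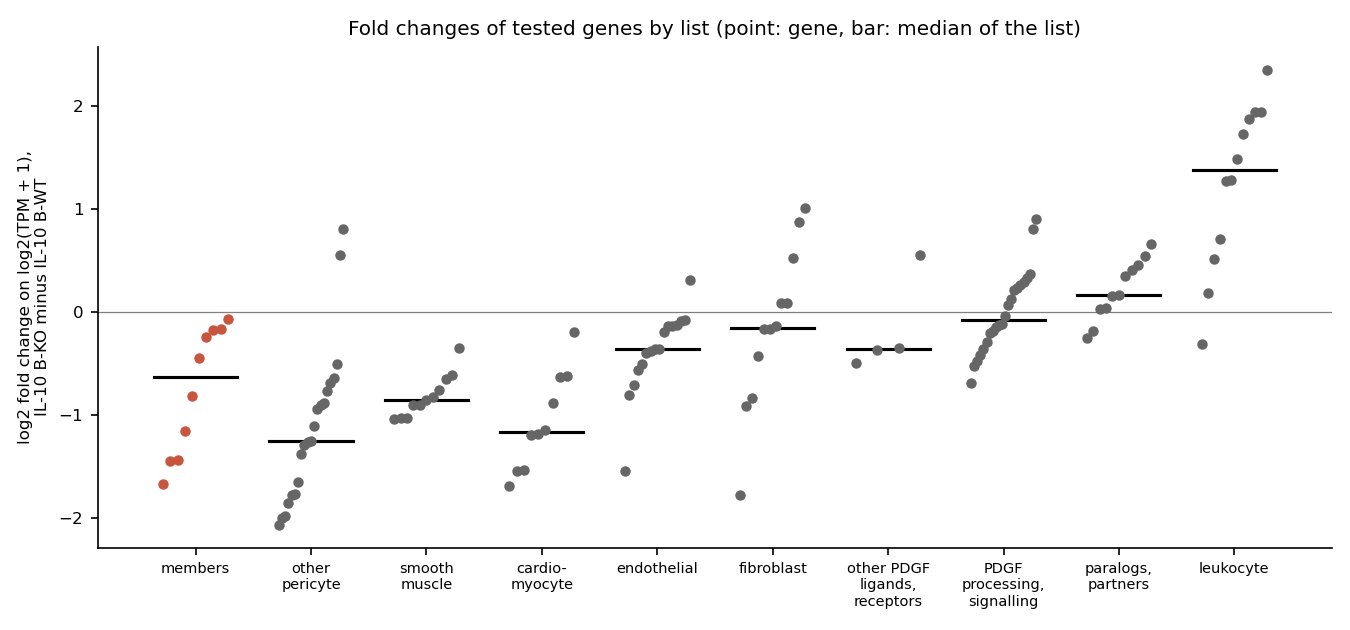
Log2 fold changes on log2(TPM + 1), knockout minus control (vertical axis), of the 10 genes (red) and of the tested genes of 9 other lists (grey), with 1 point per gene and the median of each list as a bar. The medians were -0.64 for the 10 genes, -1.26 for other pericyte genes, -0.86 for smooth muscle, -0.36 for endothelium and 1.38 for leukocytes.

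Relative to the mean log2 level of the 16 endothelial genes in the same lung, Ndufa4l2, Cox4i2, Pdgfrb and Higd1b were lower in knockout lungs by a log2 difference of -1.29, -1.07, -1.06 and -0.78. The groups then overlapped for all 4, with 4, 4, 3 and 4 of the 6 knockout lungs below every control lung. On this scale Mcam, Pdgfb, Kcnj8 and Rgs5 differed by 0.31, 0.21, 0.21 and 0.13, and Cspg4 and Abcc9 by -0.44 and -0.07.

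Leukocyte markers were higher in knockout lungs for 11 of 12 genes, and the exception was the T cell gene Cd3e (12.5 ± 7.99 and 9.86 ± 6.99 TPM, SD, n = 6, log2 fold change -0.31, limma adjusted p = 0.760), singled out after its values were seen. Of 12 such genes 8 were higher at an unadjusted p of at most 0.05 (6.83% of all genes) and 0 were DEGs, with a median log2 fold change of 1.38. Without control replicate 1, 6 of the 12 were DEGs. Their sum was 311.3 to 3132.1 TPM in control and 1141.0 to 7394.1 TPM in knockout lungs, and none of the 12 was at 0 throughout. S100a8, of neutrophils, was at 300.5 ± 292.6 and 1111.2 ± 810.9 TPM (SD, n = 6, limma adjusted p = 0.266), and Itgam, a myeloid integrin, at 24.3 ± 40.4 and 88.8 ± 70.3 TPM (SD, n = 6, limma adjusted p = 0.290). Control replicate 1, with the largest sum of its group, had the lowest Cox4i2 and Higd1b of its group. Knockout replicates 3, 5 and 6, with the largest sums of theirs (4925.5, 7394.1 and 5213.7 TPM), had the lowest Cox4i2 and Higd1b. Other genes did not follow this order. Ndufa4l2 was lowest among control lungs in replicate 3, and knockout replicate 1 was below knockout replicate 3. Pdgfrb was highest among knockout lungs in replicate 3, and Kcnj8 and Mcam were highest there in replicates 3 and 5. Epithelial genes had a median of 0.47, with 0 DEGs among 10 and 3 higher at an unadjusted p of at most 0.05. B cell genes were lower, with 3 DEGs among 7 and a median of -2.91. The part of these shifts in the results above was not tested.

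The mitochondrial share of TPM also varied between lungs, from 5.66% to 30.5% in control and from 4.63% to 15.8% in knockout lungs. Knockout replicate 4, highest of its group for Cox4i2, Ndufa4l2 and Higd1b, also had its highest share. Control replicate 5 (30.5%) had the highest control Cox4i2 (232.2 TPM) and Ndufa4l2 (193.6 TPM), but not the highest Higd1b. Control replicate 1 (5.66%) had the lowest control Cox4i2 and Higd1b. Knockout replicates 3 and 5 (5.07% and 4.63%) had Cox4i2 at 39.1 and 32.8 TPM. Apart from this order, knockout replicate 6 had 14.1% and the lowest Cox4i2 (21.8 TPM) and Ndufa4l2 (17.6 TPM). Control replicate 3 had 11.1% and the lowest control Ndufa4l2 (55.7 TPM). The part of this share in these levels was not tested.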

How the data were processed

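Total RNA of 12 lungs was analyzed by RNA-seq, 6 of control (IL-10 B-WT) and 6 of knockout mice (IL-10 B-KO), grouped by the genotype in the labels. The authors deposited TPM, in 1 column per library, each matched to its sample by name (0 columns unused). The submitters' processing notes name fastp, HISAT, RSEM and GRCm38.p5, without roles or versions of the tools. TPM keep no depth, so that precision rests on the spread between lungs, and no count model was fitted.

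Log2(TPM + 1) of 15148 genes with at least 1 TPM in at least 6 libraries was analyzed with limma 3.58.1 in R 4.3.3 (trend, genotype as the only term) and adjusted by Benjamini-Hochberg over all of them. The other calculations used Python 3.11.15, pandas 2.3.3, NumPy 2.4.6 and matplotlib 3.10.9. The fit was checked on simulated data. Coordinates are from GENCODE M21 (GRCm38). The genes and lists were chosen with earlier results of these data known. Genes named from a list were its DEGs and at most the 4 with the largest fold change (Gab1, Gja4, Anpep and Cd3e fall outside this rule and were chosen after their values were seen), with all tested relatives and partners of the 10 genes, and the 5 genes with a mean of at least 5 TPM most like Pdgfrb, Rgs5 and Mcam. The labels do not say that each sample is a separate mouse, so that p-values measure only the spread between these samples. Alternatives were another pseudocount, filter, scaling, weighting and block, and leaving out libraries.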

Additional observations from a re-analysis of the deposited data

Results flagged for a closer look

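In 20 groups of 6 lungs (10 genes in each genotype), 2 lungs lay far from the others by Dixon's criterion, which flags about 1 in 20 groups by chance. Rgs5 was at 9.33 TPM in control replicate 2, against 1.58 to 4.01 TPM in the other control lungs. Higd1b was at 62.3 TPM in knockout replicate 4, against 17.9 to 33.4 TPM in the other knockout lungs, and the same lung was the highest of its group for Cox4i2 and Ndufa4l2.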

How the results depend on the processing

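The number of DEGs was 75, and became 6 with no filter, 27 with rescaling without immunoglobulin genes, 39 with quantile normalization, 36 with median centring, 318 with array quality weights, and 1492 without control replicate 1 and knockout replicate 2 together. With no minimum fold change it was 79. With each library left out in turn it ranged from 19 to 604. DEGs among the other pericyte genes numbered 7, against 0 with no filter, quantile normalization or median centring, 13 without those 2 lungs, and 0 to 12 with each library left out. Those 2 lungs were picked by hand. In each genotype they were the least similar to their own group (median Spearman's rho 0.876 and 0.912). Control replicate 5, with the largest mitochondrial share, was kept. The replicate block gave 45 DEGs, 0 of them among the other pericyte genes. Same-numbered lungs did not deviate together (r from -0.29 to 0.05, with 0 of 12 lungs most like their own number). No pairing by number was seen in this way, but a weak one could go unseen. For each of the 10 genes the log2 fold change moved by less than 1 SD in all alternatives, and its direction turned in 1 of them for Rgs5 (to 0.01), and in 2 each for Mcam (to 0.06 and 0.01) and Kcnj8 (to 0.04 and 0.11). Under a mean of at least 5 TPM, Rgs5 and Abcc9 gave no value. Of the relations with Pdgfrb, 3 passed, 3 with a pseudocount of 0.1 and 2 with median centring. The cause of these changes was not tested. The depth behind the TPM is unknown, so that no detection limit can be given for the low values of Abcc9 and Rgs5.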
